A study of Mus musculus with 8 samples.

Results

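RNA from whole testes of Iqch mutant and wild-type mice was examined for the genes of the major histocompatibility complex (MHC) and the machinery that loads peptides onto its products. A list of 10 genes was looked up by symbol, and 9 of them have a row among the 17127 genes of the expression table. The class I set is H2-K1, H2-D1, B2m, Tap1 and Tap2, and the class II set is H2-Aa, H2-Ab1, H2-Eb1 and Cd74. Ciita, the coactivator that switches class II genes on, is not analysed here. The labels list 8 adult testis samples, 4 of genotype Iqch-/- and 4 wild type. The 7 analysed here are wild type 1 to 4 and mutants 1, 2 and 4, and the study set 1 mutant aside as an outlier. All came from males aged 4 months, and the study used homozygous mutants throughout.

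The mutants descend from zygotes of a C57BL/6 by CBA cross that were injected with Cas9 mRNA and a guide RNA against Iqch, an IQ motif-containing gene. From these, 2 lines were kept, mu5 and mu7, each with a small frameshifting deletion in exon 19. The labels do not say which line each library came from, although the study describes the RNA-seq coverage of Iqch as that of mu7. The study calls its controls wild-type mice without naming their litters or strain. C57BL/6 carries the b haplotype of the mouse MHC, which is called H2, and CBA carries the k haplotype. The H2 haplotypes of the 7 samples were not determined here, so genotype at Iqch and haplotype at H2 cannot be told apart for the H2 genes. The reference genome is C57BL/6, and how many reads of k alleles were lost in mapping was not tested. B2m on chromosome 2 and Cd74 on chromosome 18 lie outside the H2 complex and were read beside the H2 genes for that reason.

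Class I molecules pair a heavy chain, such as H2-K1 or H2-D1, with B2m and show peptides from inside the cell to CD8 T cells. Nearly all nucleated cells make them, but germ cells past the early stages carry very little. TAP1 and TAP2 form the pump that brings peptides into the endoplasmic reticulum for loading. Class II molecules pair an alpha with a beta chain, are guided by the invariant chain CD74 and present peptides from endosomes to CD4 T cells. They are made mainly by macrophages, dendritic cells and B cells, and in the testis macrophages of the interstitium are their best known source.

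Each library held 32064384 to 37551057 reads on the genes of the table, so that 1 read was worth 0.0266 to 0.0312 CPM (counts of a gene for every 1000000 counted). Iqch itself stood at 193 to 217 CPM in wild-type and 64.8 to 69.2 CPM in mutant libraries (log2 fold change -1.63, SE 0.05, limma FDR 1.9e-10), lower in the samples labelled mutant. Differences were tested with limma on log2(CPM + 0.1) over 17126 genes and called at a Benjamini-Hochberg FDR below 0.01. Fold changes are on that scale, on which the pseudocount shrinks those of weakly expressed genes. Of all tested genes, 8640 were called (50.4%), 6212 higher in the mutant (36.3%) and 2428 lower (14.2%). The median gene stood 0.12 higher in the mutant on the log2 scale. With size factors in place of the deposited scaling that median was -0.01, and 51.8% of the calls were higher against 71.9%. So common are calls in this comparison that a count of called genes says little by itself, and sizes and single libraries are given throughout. In bulk tissue a larger number of cells of a type and more RNA per cell cannot be told apart. CPM are shares of a library, so fewer cells of other types can raise them as well. The study reports smaller testes in the mutants and, in older mice, a lower proportion of haploid germ cells. The part of each in the values below was not tested.

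All 9 genes were called higher in Iqch mutant testes, against a background of 36.3%. All 9 changed by more than 2-fold, a size that 1506 tested genes (8.79%) reached together with a call in that direction. In each, every mutant library lay above every wild-type library, which held for 42.8% of tested genes. Log2 fold changes ran from 1.15 for H2-K1 to 2.32 for H2-Aa. The level filter bears on this count, because Tap1 and Tap2 reached the 2.2 CPM minimum in 2 libraries of the mutant group alone. The other 7 reached it in both groups.

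The most abundant class I heavy chain was H2-K1 (ENSMUSG00000061232, GRCm39 chromosome 17 from 34214987 to 34219321, minus strand). It stood at 67.6, 71.3, 65.3 and 77.8 CPM in wild type 1 to 4 and at 165.3, 169.8 and 135.5 CPM in mutants 1, 2 and 4. The groups were far apart, and mutant 4 was the lowest of its group. The means were 70.5 ± 5.46 CPM (SD, n = 4) and 157 ± 18.7 CPM (SD, n = 3), a log2 fold change of 1.15 (SE 0.08, limma FDR 1.0e-07). H2-D1 (ENSMUSG00000073411, chromosome 17 from 35481691 to 35486475, plus strand) encodes the second classical heavy chain of the b haplotype. Its wild-type libraries held 25.97, 24.06, 21.94 and 31.72 CPM and its mutants 85.8, 83.3 and 60.5 CPM. The lowest mutant thus lay above the highest wild type, wild type 4. The change was 1.55 (SE 0.13, limma FDR 5.1e-07), from 25.9 ± 4.199 to 76.5 ± 13.9 CPM.

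B2m (ENSMUSG00000060802, chromosome 2 from 121977957 to 121983594, plus strand), the light chain shared by all class I molecules, stood at 30.8, 32.6, 28.9 and 40.9 CPM in the wild type. In the mutants it stood at 89.3, 101.7 and 73.8 CPM. The order of libraries was close to that of H2-K1, with wild type 4 and mutant 2 at the top of their groups and wild type 3 and mutant 4 at the bottom. Its mean went from 33.3 ± 5.28 to 88.3 ± 14.0 CPM, a change of 1.40 (SE 0.12, limma FDR 5.3e-07).

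The transporter genes were expressed at far lower values. Tap1 (ENSMUSG00000037321, chromosome 17 from 34405996 to 34416199, plus strand) was at 1.95, 1.43, 1.58 and 1.57 CPM in wild-type libraries and at 6.29, 7.45 and 3.53 CPM in mutants. Mutant 4 lay nearer to the wild types than to mutant 2, and relative to its mean Tap1 had the widest spread among mutants of all 9 genes, 5.76 ± 2.01 CPM. The wild-type mean was 1.63 ± 0.221 CPM and the change 1.70 (SE 0.22, limma FDR 2.8e-05). Tap2 (ENSMUSG00000024339, chromosome 17 from 34422501 to 34435829, plus strand) was at 2.06, 1.63, 1.31 and 2.24 CPM in the wild type. Its mutants were at 6.35, 5.71 and 4.98 CPM, a change of 1.62 (SE 0.18, limma FDR 8.4e-06). These were the only 2 members with fewer than 100 reads in a library, the fewest being 43 for Tap2 and 49 for Tap1.

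Among the class II genes the largest change was that of H2-Aa (ENSMUSG00000036594, chromosome 17 from 34493404 to 34506798, minus strand), the alpha chain of the I-A molecule. Wild-type libraries held 6.58, 5.91, 5.11 and 6.71 CPM and mutants 32.5, 36.3 and 23.99 CPM. Mutant 4, the lowest of its group, was well above wild type 4, the highest of the wild type. The mean went from 6.08 ± 0.733 to 31.0 ± 6.32 CPM, a change of 2.32 (SE 0.14, limma FDR 2.9e-08). H2-Ab1 (ENSMUSG00000073421, chromosome 17 from 34476663 to 34488393, plus strand), the beta chain of the same molecule, was at 10.3, 8.80, 7.82 and 11.02 CPM in the wild type and at 32.2, 37.1 and 26.3 CPM in the mutants. Its change was smaller, at 1.74 (SE 0.13, limma FDR 2.1e-07).

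H2-Eb1 (ENSMUSG00000060586, chromosome 17 from 34504236 to 34535648, plus strand) encodes the beta chain of the I-E molecule. It stood at 7.42, 6.96, 5.23 and 9.75 CPM in the wild type and 30.1, 35.7 and 22.02 CPM in the mutants, a change of 1.99 (SE 0.19, limma FDR 1.5e-06). Its partner H2-Ea, which the b haplotype does not express and the k haplotype does, is not analysed here. Cd74 (ENSMUSG00000024610, chromosome 18), the invariant chain, stood at 12.2, 11.6, 11.02 and 16.9 CPM in the wild type and 58.0, 64.4 and 39.3 CPM in the mutants. Its mean went from 12.9 ± 2.66 to 53.9 ± 13.1 CPM, a change of 2.04 (SE 0.16, limma FDR 3.9e-07). Outside the H2 complex, Cd74 and B2m therefore changed within the range of the H2 genes.

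**Figure D1:**
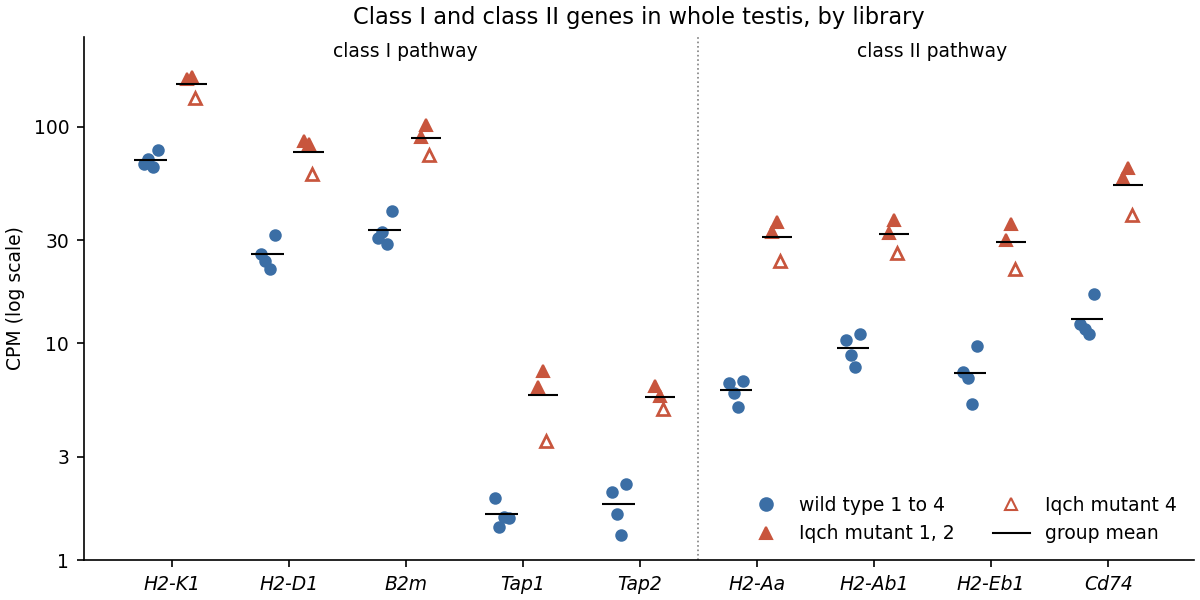
CPM (log scale) of the 9 genes in each library, with blue circles for wild type 1 to 4, filled red triangles for Iqch mutants 1 and 2, open triangles for mutant 4 and black lines for group means. In every gene the mutants lie above the wild types, and mutant 4 is the lowest mutant, down to 3.53 CPM for Tap1.

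Per kilobase of annotated exons, the wild-type means ran in the order H2-K1 (22.1 CPM per kb), B2m (15.8), H2-D1 (8.66), Cd74 (5.14), H2-Ab1 (3.70), H2-Eb1 (2.83) and H2-Aa (1.42), with Tap2 (0.380) and Tap1 (0.272) below them. In the mutants H2-K1 (49.3 CPM per kb) and B2m (41.9) kept the first places, followed by H2-D1 (25.6), Cd74 (21.4), H2-Ab1 (12.4), H2-Eb1 (11.3) and H2-Aa (7.21), and again Tap2 (1.19) and Tap1 (0.959) came last. The libraries of H2-Ab1 and H2-Eb1 overlapped in both groups, as did those of Tap1 and Tap2. In the mutants so did those of H2-K1 and B2m and those of H2-D1 and Cd74. The annotated exons of H2-Aa add up to 4292 bases although its longest coding transcript has 1254, so its value per kilobase depends on the length taken. In CPM alone its wild-type mean, 6.08, was also the lowest of the class II genes. In the mutants that of H2-Eb1 was lower (29.3 against 31.0 CPM).

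Promoters of these genes hold a conserved set of short elements. In class II and class I promoters an X and a Y box bind the RFX, CREB and NF-Y factors on which CIITA and its class I counterpart NLRC5 assemble. Class I promoters also hold a kappa B element and an interferon response element further upstream. The RefSeq table of promoters (GRCm38.p6) has rows for 6 of the 9 genes, and each was found once on its chromosome of GRCm39. The stretches below are those of H2-K1 from class I and of H2-Aa and H2-Eb1 from class II. They are written 5′ to 3′ on the strand of the gene, with capitals for matches to 5 motifs searched on both strands. The Y box core was searched as GATTGG, which in reverse reads CCAATC. A match to these letters need not be the Y box itself. The X2 box core was searched as TGACG and the kappa B element as GGGATTCCC. The interferon response motifs were AGTGAAA and, as a spaced pair of sites, GAAANNGAA. Among the matches in these windows, the only overlap was between TGACG matches of H2-Aa. The motifs were chosen after the sequences had been read.

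H2-K1, chr17:34219308-34219507, minus strand: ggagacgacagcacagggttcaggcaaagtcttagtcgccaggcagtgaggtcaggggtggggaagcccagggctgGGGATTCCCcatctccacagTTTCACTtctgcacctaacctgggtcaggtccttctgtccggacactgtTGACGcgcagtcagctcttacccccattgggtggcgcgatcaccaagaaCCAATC

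H2-Aa, chr17:34506799-34506998, minus strand: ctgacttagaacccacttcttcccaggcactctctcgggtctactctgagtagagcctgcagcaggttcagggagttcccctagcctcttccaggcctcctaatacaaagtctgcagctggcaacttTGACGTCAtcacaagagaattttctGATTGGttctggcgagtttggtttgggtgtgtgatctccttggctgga

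H2-Eb1, chr17:34524613-34524812, plus strand: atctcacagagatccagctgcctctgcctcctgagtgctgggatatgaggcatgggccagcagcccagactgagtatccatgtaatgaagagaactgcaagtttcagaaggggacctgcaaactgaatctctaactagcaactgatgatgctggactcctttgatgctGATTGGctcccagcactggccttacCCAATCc

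The H2-K1 stretch ends at the base before the RefSeq start, and its last 14 bases are in the first exon of GENCODE transcripts. The H2-Aa and H2-Eb1 stretches end just before the first GENCODE exon that overlaps the window. In H2-K1 the kappa B match lies 124 to 116 bases before the start, followed by AGTGAAA in reverse (104 to 98). After these come TGACG (55 to 51) and the Y box core letters in reverse (6 to 1). The letters CATTGG lie between TGACG and that reverse match and were not searched for. Which of them is the Y box was not tested. H2-D1 has the same 4 matches as H2-K1 in order and orientation, from 170 to 162 for kappa B to 53 to 48 for the Y box core letters. B2m has GAAANNGAA (139 to 131), TGACG (78 to 74) and GATTGG (54 to 49). H2-Aa has an overlapping pair of TGACG matches on opposite strands, which together span 74 to 67, and then GATTGG at 49 to 44. H2-Eb1 has the Y box core forward at 60 to 55 and in reverse at 35 to 30, and no TGACG. Tap1 has TGACG at 86 to 82 and a reverse Y box core at 222 to 217, on the far side of it.

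Within 250 bases before the start, the Y box core letters were in 6 of 6 genes and in 14.6% of all listed promoters. TGACG was found in 5 of 6 and in 17.8%. Both occurred together in 5 of 6 and in 3.11% of all promoters. The kappa B letters were found in 2 of 6 and in 0.301%, AGTGAAA in 2 of 6 and in 3.70%, and GAAANNGAA in 1 of 6 and in 7.13%. Annotated exons of the same gene cover all 250 bases searched for H2-D1 and Tap1 and 211 of those for B2m. Those windows were not printed but are counted here. The genes were chosen for their known pathway, so these shares describe the windows and are no test. H2-Aa, with the largest change, and H2-K1, with the smallest, both held the Y box core letters and TGACG.

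**Figure D2:**
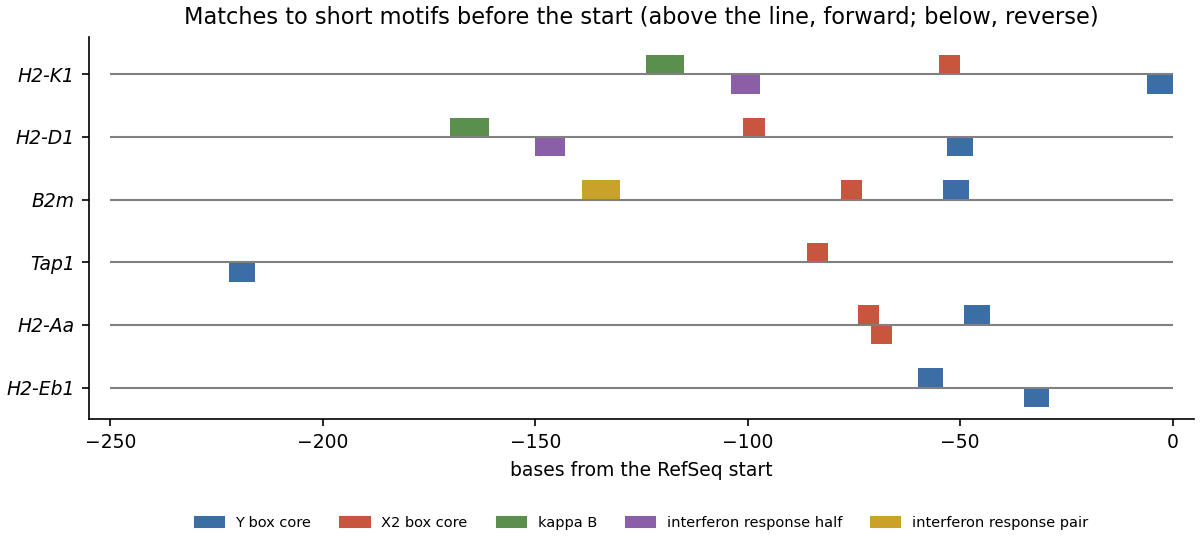
Position of each motif match in the 250 bases before the RefSeq start of 6 genes, in bases from the start. Bars above the line are forward and bars below it reverse matches. H2-K1 and H2-D1 share 4 matches in 1 order. H2-Eb1 holds 2 matches to the Y box core letters, and Tap1 its only one farthest from the start.

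Class II genes had the larger fold changes. The 4 class II genes had log2 fold changes from 1.74 to 2.32 with a median of 2.01, and the 3 class I genes that reached the minimum in both groups had values from 1.15 to 1.55 with a median of 1.40. With Tap1 and Tap2 the class I median was 1.55. The median of all genes was 0.12. With size factors the medians were 1.88 for class II and 1.42 for the 5 class I genes, and the order was kept.

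To compare the classes within a library, the common class II chain Cd74 was set against the common class I chain B2m, both of them outside the H2 complex. The log2 ratio of Cd74 to B2m was -1.32, -1.48, -1.38 and -1.27 in wild type 1 to 4 and -0.62, -0.66 and -0.91 in mutants 1, 2 and 4. The groups did not overlap, and mutant 4 was nearest to the wild type. The means were -1.37 ± 0.09 (SD, n = 4) and -0.73 ± 0.16 (SD, n = 3), a difference of 0.64. In an exact two-sided permutation test 1 of the 35 ways to place the 7 libraries in groups of 4 and 3 separated them by as much in absolute value (p = 0.029, the smallest that 4 against 3 allows). With the smaller tail doubled the exact permutation p was 0.057. A ratio within a library is not touched by the scaling between libraries.

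Summed over its members, class I made up 119 to 154 CPM in wild-type and 278 to 368 CPM in mutant libraries. The class II sum was 29.2 to 44.3 CPM in the wild type and 112 to 174 CPM in the mutants. Class II thus amounted to 24.5 to 28.8% of class I in the wild type and to 40.1 to 47.2% in the mutants. As with the ratio of Cd74 to B2m, mutant 4 had the lowest share among mutants, and it still lay above wild type 4, the highest of its group.

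**Figure D3:**
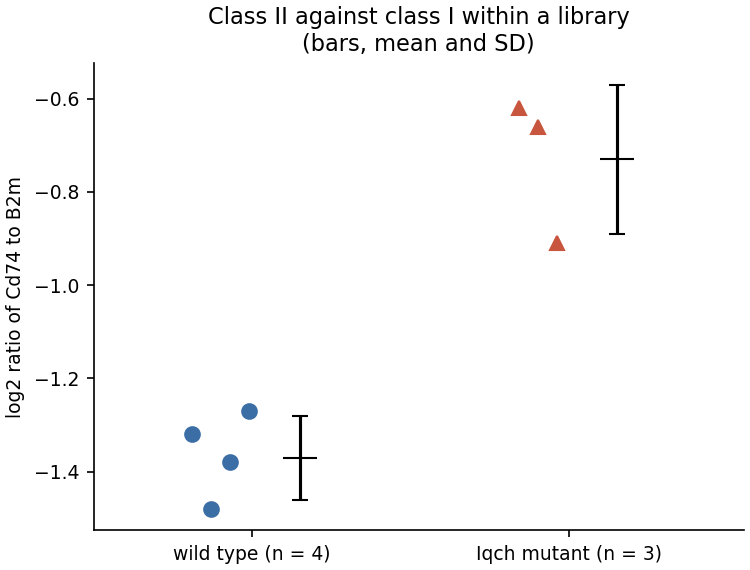
Log2 ratio of Cd74 to B2m in each library, with circles for wild type, triangles for Iqch mutant, and a bar for mean and SD beside each group. The mutants lie between -0.91 and -0.62, all above the wild types between -1.48 and -1.27.

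The libraries of a group kept much the same order across these genes. Mutant 4 was the lowest mutant in 9 of 9, a rank it held in 28.2% of all tested genes. Mutant 2 was the highest in 7 of 9 (40.6% of all tested genes). Among the wild types, wild type 3 was lowest in 8 of 9 (27.5%) and wild type 4 highest in 8 of 9 (30.7%). The 9 genes share these libraries and are no independent replicates of the pattern. Mutant 4 held 51.4 to 82.5% of the mean of mutants 1 and 2, with a median of 71.6%, where the median over all tested genes was 100%. Wild type 4 held 95.1 to 149% of the mean of the other wild types, with a median of 132%. Part of this order was shared by B2m and Cd74, so it was not limited to genes of the H2 complex. Within a group the SD of log2 levels ran from 0.11 to 0.36 over the H2 genes, and it was 0.22 and 0.23 for B2m and 0.27 and 0.37 for Cd74 in wild type and mutants. A split of the libraries by H2 haplotype was not tested.

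The rest of the class I pathway was less uniform. Of 25 other class I heavy chain genes 4 had a row, and 2 were called higher. H2-T22 went from at most 2.64 CPM in the wild type to 6.24 to 8.08 CPM in the mutants (log2 fold change 1.63, SE 0.15, limma FDR 1.0e-06). H2-T23, which encodes the Qa-1 molecule read by natural killer cell receptors, went from 3.02 to 5.30 CPM to 9.58 to 12.8 CPM (1.60, SE 0.18, limma FDR 6.0e-06). H2-Q4 was at 3.68 to 5.595 and 4.52 to 8.02 CPM (0.40, limma FDR 0.080), and H2-M5 at 2.13 to 2.71 and 2.04 to 3.66 CPM (0.09, limma FDR 0.72). For both the groups overlapped.

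Class I-like genes outside the H2 complex were called higher in 4 of the 4 tested. Fcgrt, the neonatal Fc receptor, changed by 1.27 and Mr1, which presents microbial metabolites, by 1.25. Mill2 changed by 1.01 and Hfe, a regulator of iron uptake, by 0.99. In 3 of these 4 genes mutant 1, and not mutant 4, was the lowest mutant.

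Of 12 genes of peptide supply and loading 11 were tested, with 6 called higher, 0 lower and a median of 0.65. Psmb8 (1.85) and Psmb9 (1.77), subunits of the immunoproteasome, reached the minimum in the mutants alone. Over the 9 that reached it in both groups the median was 0.29, with 4 called higher. Among these Psme1, a proteasome activator subunit, changed by 1.52 and the immunoproteasome subunit Psmb10 by 1.20. Erap1, which trims peptides, changed by 1.08 and Tapbp, the tapasin gene, by 0.65. The chaperones of the endoplasmic reticulum were abundant and were not called: Calr at 527 to 568 CPM in the wild type and 565 to 597 CPM in the mutants, Pdia3 at 0.09 and Canx at 0.18. Nlrc5, the class I coactivator, was at 12.2 to 20.4 CPM in the wild type and 9.03 to 13.4 CPM in the mutants, with overlapping groups (-0.47, limma FDR 0.031). It was called lower with size factors.

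**Figure D4:**
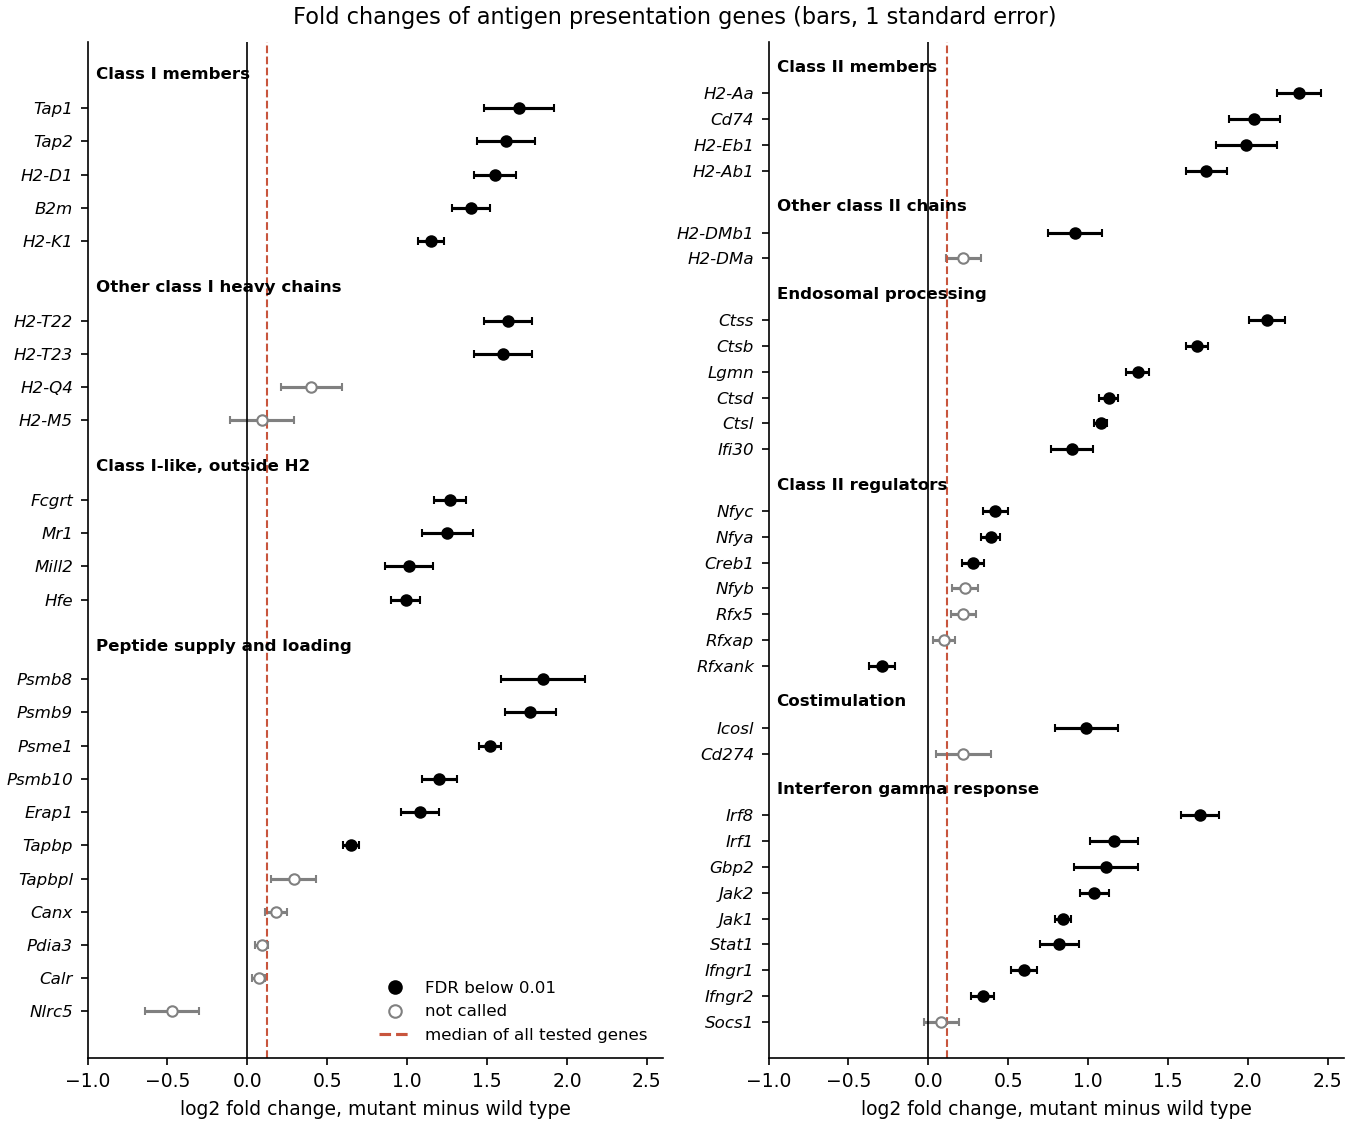
Log2 fold change (mutant minus wild type, bars of 1 SE) of the tested genes of each role, filled where the limma FDR was below 0.01. The dashed line marks the median of all tested genes, 0.12. Classical class I and class II genes lie at 1.15 to 2.32, while class II regulators lie between -0.29 and 0.42.

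On the class II side, 2 of 7 other chains and editors were tested. H2-DMb1 changed by 0.92 (limma FDR 3.8e-04) and passed the minimum in the mutants alone. H2-DMa, its partner in the peptide editor H2-DM, was at 8.25 to 10.3 and 9.71 to 12.8 CPM (0.22, limma FDR 0.10) and was not called. The 7 regulators that bind class II promoters were all tested, with 3 called higher (Nfyc 0.42, Nfya 0.39 and Creb1 0.28), 1 lower (Rfxank -0.29) and a median of 0.23. With size factors 2 were higher and 1 lower. All 7 values were smaller than those of H2-Aa, H2-Ab1 and H2-Eb1.

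Endosomal enzymes of antigen processing were called higher in 6 of the 6 tested, with a median of 1.22. Ctss, the cathepsin that makes the last cut of the invariant chain, stood at 2.98 to 3.89 CPM in the wild type and 15.0 to 16.1 CPM in the mutants (2.12, SE 0.11, limma FDR 1.1e-08). Ctsb changed by 1.68, Lgmn by 1.31 and Ctsd by 1.13. Mutant 4 was the highest mutant for Ctss, unlike for the class II chains. Of the costimulatory genes 2 of 6 were tested, and Icosl changed by 0.99 (limma FDR 9.4e-04) while Cd274 was not called (0.22, limma FDR 0.27).

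Interferon gamma is the classical inducer of both classes. Of 11 genes of its receptor, signalling and response, 9 were tested, with 8 called higher, 0 lower and a median of 0.84 (7 with size factors). Irf8, a factor also made by macrophages, changed by 1.70, Irf1 by 1.16, Gbp2 by 1.11 and Jak2 by 1.04. Gbp2 reached the minimum in the mutants alone. Socs1, a feedback inhibitor that interferon induces, was at 4.79 to 6.07 and 5.47 to 5.80 CPM and was not called (0.08, limma FDR 0.55).

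Markers of cell types were read beside these genes. Of 13 macrophage markers 12 were tested, 11 were called higher and the median was 1.60 (1.57 over the 9 that reached the minimum in both groups). Their summed level was 99.9 to 113 CPM in the wild type and 305 to 352 CPM in the mutants. Lyz2, which encodes lysozyme and was the most abundant of them in the mutants, changed by 2.34. The complement subunits C1qa and C1qc changed by 1.94 and 1.87, and the scavenger receptor Cd163, which reached the minimum in the mutants alone, by 1.84. Cx3cr1 was not called (0.65, limma FDR 0.017). Mutant 4 was the lowest mutant in 8 of the 12 and held a median of 89.4% of the mean of mutants 1 and 2.

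Set against this sum, class II overlapped between the groups and class I was lower in every mutant. The class II sum per unit of the macrophage sum was 0.292 to 0.420 in the wild type and 0.365 to 0.492 in the mutants, with overlapping groups. The class I sum per unit was 1.16 to 1.46 in the wild type and 0.911 to 1.04 in the mutants, without overlap. Both outcomes depend on the markers summed, and on Lyz2 above all. Lyz2 alone stood at 17.4 to 24.2 CPM in the wild type and at 90.2 to 107 CPM in the mutants. These ratios are descriptions, and the part of the macrophage markers in the class I and class II values was not tested.

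**Figure D5:**
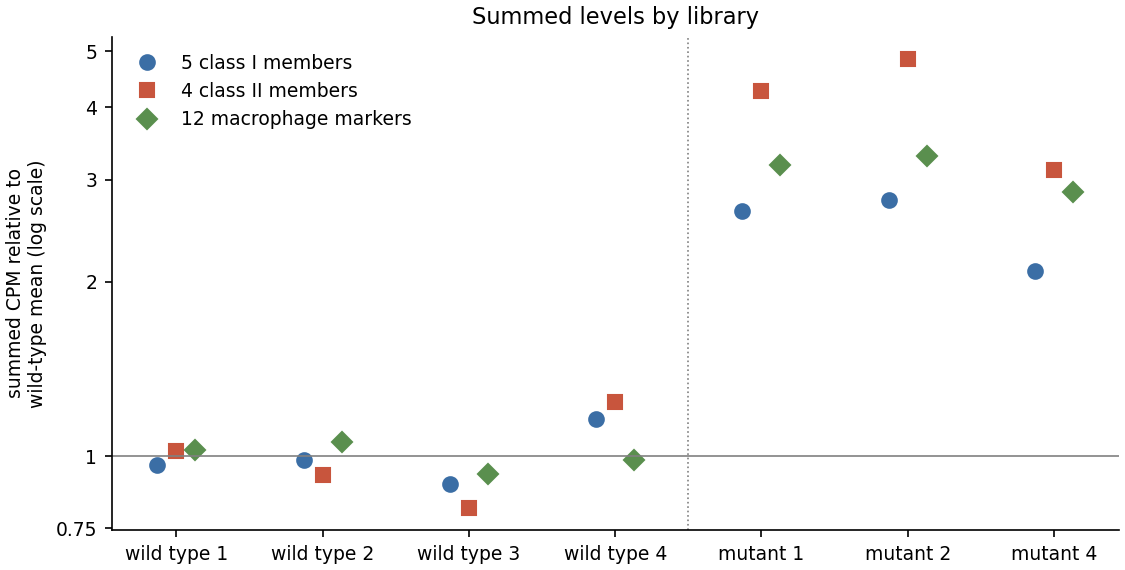
Summed CPM of the 5 class I genes, the 4 class II genes and the 12 macrophage markers in each library, relative to the mean of the 4 wild types (log scale). In each mutant the class II sum lies highest and the class I sum lowest, and the class II sums run from 112 to 174 CPM in the mutants against 29.2 to 44.3 CPM in the wild type.

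Markers of other antigen presenting cells were sparse. Of 8 dendritic cell markers 4 were tested and 1 was called higher, Itgax (2.10), which macrophages also express and which passed the minimum in the mutants alone. Flt3 (-0.11), Zbtb46 (0.04) and Ccr7 (0.25) were not called. The B cell marker Pax5 was not called (-0.10). The only T cell marker with a row, Cd3d, was lower (-1.34, SE 0.10, limma FDR 3.1e-07), with 11.02 to 13.2 CPM in the wild type and 4.12 to 5.06 CPM in the mutants. Defining markers such as Cd79a, Ms4a1, Cd3e, Cd4 and Cd8a are not analysed here.

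Markers of other testis cells differed as well. Leydig cell markers were called higher in 5 of 6 (median 1.25), led by Hsd3b1 (3.21) and the abundant Insl3 (2.75), and Sertoli cell markers in 7 of 7 (median 0.72, and 5 of 7 with size factors). Of 5 endothelial markers 2 were higher, Kdr (1.81) and Cdh5 (1.05). Pecam1 (0.63), Vwf (-0.21) and Tek (-0.29) were not called, and with size factors 2 of the 5 were higher and 1 was lower. Of 3 peritubular myoid markers 0 were called. Spermatogonial markers were higher in 3 of 5, led by Kit (1.50), and 1 of 4 spermatocyte markers was higher. With size factors 1 of 5 spermatogonial markers was higher, and of the spermatocyte markers 0 were higher and 1 was lower. All 6 spermatid markers were lower (median -0.59), including the most abundant, Prm2, at 5787 to 6623 CPM in the wild type and 3737 to 4434 CPM in the mutants. The part of these differences in the class I values, which somatic cells in general express, was not tested.

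The H2 genes sit in a dense cluster, and genes between them were read to see whether the whole stretch moved. Read were 45 tested protein-coding genes of chromosome 17 between H2-K1 and H2-D1 that are in no other list used here. Of these, 19 were called higher and 10 lower, beside 36.3% higher and 14.2% lower of all tested genes. Their median was 0.14 beside 0.12 for all genes. With size factors 15 were higher and 15 lower. Called higher by more than 2-fold were 4 of the 45, beside 8.79% of all tested genes. They were Cyp21a1 (3.56), a steroid hydroxylase, the complement gene C4b (2.70), Neu1 (1.10) and D17H6S53E (1.07). C4b stood at 30.5 to 35.6 CPM in the wild type and 181.5 to 249 CPM in the mutants. Its near-identical neighbour C4a stood at 11.9 to 12.9 and 11.9 to 13.3 CPM (-0.01), and the counting could divide their reads. Aif1, chosen after its value was seen because macrophages express it, was lower (-0.48, limma FDR 1.0e-06). It stood at 368 to 403 CPM in the wild type and 265 to 283 CPM in the mutants. These levels were far above those of every macrophage marker tested, and which cells the Aif1 reads came from was not tested.

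Counting limits differ among the 9 genes. Of the 100-base windows of the longest coding transcript, 0 of those of H2-K1, B2m, Tap1, Tap2, H2-Aa, H2-Ab1, H2-Eb1 and Cd74 recur exactly in a GENCODE transcript of another gene. For H2-D1 4.59% do, mostly in H2-Q1, and the values of H2-T22 and H2-T23 are among those that could share reads with it. Only exact matches were searched, so sharing of reads between similar sequences was not measured. Overlap on the opposite strand is a further limit, since the strand setting of the counting is not given in the sources used here. Annotated lncRNAs cover 26.8% of the exon bases of H2-K1 and 24.2% of those of H2-D1, and Psmb9 covers 12.4% of those of Tap1. H2-Aa and H2-Eb1 cover 2.75% and 4.55% of each other's exon bases. Reads from these stretches cannot be assigned to 1 gene without strand.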

How the data were processed

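Whole testis RNA of 4 wild-type and 3 Iqch mutant samples was analysed. Per the study's methods, libraries made with a TruSeq RNA kit were sequenced as paired ends, trimmed with Trimmomatic, mapped to GRCm39 with Subread and counted with featureCounts. The authors dropped genes unless 2 samples of 1 group held 75 reads or more, called genes with DESeq2 and edgeR, and deposited CPM. The deposited CPM of each library sum to 1000000 over 17127 genes and carry no factor between samples. All values (100%) of a library were whole multiples of 1 step (tolerance 0.01), taken as 1 read to give depth. A value of 0 allows up to 3 reads. Such limits cover counting error only.

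Here, log2(CPM + 0.1) was fitted with lmFit and eBayes with a trend (limma 3.58.1, R 4.3.3) for the 17126 genes at 2.2 CPM or more in 2 samples of a group, and p-values were adjusted by Benjamini-Hochberg. The study describes the RNA as that of testes of 4 mice per genotype, and the labels name no animals. The Cd74 to B2m ratio was tested by exact permutation. Alternatives were pseudocounts of 1 and 0.01, no minimum, a minimum of 5 CPM, size factors, TMM factors, the replicate number as a block, and each library left out in turn.

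The genes and lists were chosen with earlier results of these data known. Named are all members and tested H2 genes, up to 4 called genes of each list with the largest changes and no overlap, the most abundant markers, and the 5 genes nearest in pattern to H2-Ab1 and B2m. Others named, such as genes of a list that were not called, were chosen after their values were seen. The B cell marker list is not reported here in full. Symbols and GRCm39 coordinates came from GENCODE M39, which holds 17045 of the genes (99.5%). Computations used Python 3.11.15, pandas 2.3.3, NumPy 2.4.6 and SciPy 1.17.1, and figures matplotlib 3.10.9.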

Additional observations from a re-analysis of the deposited data

How the results depend on the processing

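The 9 genes were called higher under all 14 alternatives, and the highest limma FDR of any of them was 3.0e-04, for Tap1 without mutant 1. Leaving out 1 library at a time moved the change of H2-K1 between 1.09 and 1.25, of Tap1 between 1.48 and 2.01 and of H2-Aa between 2.19 and 2.49. Under the other alternatives the change of Tap1 ran from 1.32, with a pseudocount of 1, to 1.75. The difference in the log2 ratio of Cd74 to B2m was 0.58 to 0.73 with 1 library left out, and 0.59 and 0.64 with pseudocounts of 1 and 0.01. Over all genes, 4295 were called lower with size factors and 4109 with TMM factors, against 2428, and the median gene then stood at -0.01 and 0.00. Same-numbered samples did not deviate together (r = 0.03, 0.01 and -0.10), so no shared effect of the replicate number was seen. Whether they shared a litter or handling is not given in the labels. With the replicate number as a block 7722 genes were called against 8640, all 9 genes of this pathway among them, and the Cd74 to B2m difference was 0.63. Count models on recovered reads were planned and not run. Depth limits Tap1 and Tap2 most, with as few as 49 and 43 reads in a library, and genes without a row could not be tested.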

Other observations

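Among all tested genes, those whose levels over the 7 libraries ran closest to H2-Ab1, by the root mean square difference of mean-centred log2(CPM + 0.1), were Cacnb3, a calcium channel subunit, Srrm4, a splicing regulator of neurons, Xdh, the xanthine oxidase gene, Grhpr and Fndc10, with differences from 0.086 to 0.121. Nearest to B2m were Ltbp1, a protein that binds latent TGF-beta (0.074), Cox7b (0.090), Bcl3 (0.097), Fmo5 (0.101) and Tspo (0.104). Each of the 10 was higher in the mutant, by 1.33 to 1.82 on the log2 scale.

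In 16 groups of 4 libraries examined, 0 held a library that stood apart from the others by Dixon's criterion for the gap over the range. The mutant group has 3 libraries, so this check does not place mutant 4 within its group.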
